A study of Mus musculus with 12 samples.

Results

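The comparison examined here is the effect of interleukin-33 (IL-33) on mouse eosinophils that were at the same time exposed to an antibody against Siglec-F. It uses 6 of the 12 RNA sequencing libraries of the study, which were assigned to their groups by labelled treatment. The eosinophils were sorted from the spleens of IL-5tg_4get/C57BL/6 mice, which overproduce interleukin-5 and carry a green fluorescent reporter of interleukin-4 transcription, and were taken as reporter-positive cells of high side scatter. All cells were cultured for 4 h. The 3 libraries called antibody libraries below came from cells given 5 µg/mL of anti-Siglec-F (clone E50-2440), and the 3 combined libraries from cells given the same antibody plus 10 ng/mL of IL-33. The other 6 libraries, 3 with a rat IgG2a isotype control and 3 with IL-33, are used only to set the IL-33 response without anti-Siglec-F beside the response with it. Whether the IL-33 cells also received the isotype antibody is not in the labels, and neither is whether replicate libraries stem from different mice or cultures. The p-values therefore rest on a spread that may be purely technical.

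IL-33 is an alarmin, a cytokine released by damaged barrier cells. It binds ST2, the product of Il1rl1, which pairs with the accessory chain encoded by Il1rap and signals through MyD88 and IRAK kinases to the transcription factor NF-kB and to MAP kinases. NF-kB dimers are held in the cytoplasm by IkB proteins and enter the nucleus when these are degraded, and several IkB genes are themselves NF-kB targets. Siglec-F is a sialic acid-binding receptor of mouse eosinophils whose cytoplasmic tail carries an inhibitory motif, and crosslinking it with antibody is used to lower eosinophil numbers.

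Promoter letters come first, for 5 of the genes on which the results below turn and whose start region holds a kB motif, the sequence class NF-kB dimers bind. The motif searched was GGNNTTNCC on both strands, within 250 bases before to 50 after the RefSeq start site (GRCm38.p6, the assembly that mm10 names). It was chosen after the calls were known. A loose and a strict pattern planned earlier, both starting with GGG, were replaced by it, and their shares are not given. The motif shares below are thus a description and no support. A RefSeq window was found for 9810 of the 14547 genes tested and for 16 of the 20 genes with the largest rise by the naming rule, without its limit of 10. Of those 16 promoters 8 held the motif: Il6, Ptgs2, Cxcl2, Acod1, Smpdl3b, Cxcl3, Il13 and Nfkbia. The other 8, of Il1b, Ccl3, Clec4e, Spic, Il1a, Itsn1, Rab20 and Mreg, did not. The 250 bases before each start site are given 5′ to 3′ on the gene's strand, with the motif in capitals.
Il6 (plus strand, chr5:30012864-30013113): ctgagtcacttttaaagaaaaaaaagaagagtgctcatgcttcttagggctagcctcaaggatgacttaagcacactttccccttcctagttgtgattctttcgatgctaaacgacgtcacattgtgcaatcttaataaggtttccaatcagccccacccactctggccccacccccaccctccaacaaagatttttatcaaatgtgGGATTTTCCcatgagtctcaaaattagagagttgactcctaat
Cxcl2 (plus strand, chr5:90903649-90903898): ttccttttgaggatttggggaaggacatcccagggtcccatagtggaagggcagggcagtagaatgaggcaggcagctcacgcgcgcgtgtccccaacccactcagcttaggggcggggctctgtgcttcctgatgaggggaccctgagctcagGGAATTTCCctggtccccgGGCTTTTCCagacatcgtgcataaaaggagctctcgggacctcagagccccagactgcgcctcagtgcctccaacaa
Ptgs2 (plus strand, chr1:150099781-150100030): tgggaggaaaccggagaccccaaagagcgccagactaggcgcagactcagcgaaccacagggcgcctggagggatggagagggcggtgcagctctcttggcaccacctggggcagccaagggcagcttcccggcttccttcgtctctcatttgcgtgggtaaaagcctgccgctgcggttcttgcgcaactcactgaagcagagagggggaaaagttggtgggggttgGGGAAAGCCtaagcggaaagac
Il13 (minus strand, chr11:53634703-53634952): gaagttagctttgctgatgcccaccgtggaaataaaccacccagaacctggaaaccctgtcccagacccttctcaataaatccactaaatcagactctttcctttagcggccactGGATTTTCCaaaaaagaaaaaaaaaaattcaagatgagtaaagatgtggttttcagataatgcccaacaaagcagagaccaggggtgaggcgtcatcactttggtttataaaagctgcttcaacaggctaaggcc
Nfkbia (minus strand, chr12:55492648-55492897): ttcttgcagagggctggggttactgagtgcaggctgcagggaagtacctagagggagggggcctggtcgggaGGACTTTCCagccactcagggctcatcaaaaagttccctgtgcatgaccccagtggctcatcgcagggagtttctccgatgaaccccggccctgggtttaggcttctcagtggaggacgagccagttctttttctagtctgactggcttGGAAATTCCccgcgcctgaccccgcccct
Cxcl2 and Nfkbia held 2 matches each and the other 3 genes 1 each. The motif was in 20.4% of 314 promoters of genes called higher below, in 13.8% of 189 of genes called lower, and in 17.1% of all 9810. Among the 57 promoters of genes called at least 4-fold higher it was in 40.4%, the AP-1 motif TGANTCA in 8.77% and the CRE motif TGACGTCA in 0. Over all calls the AP-1 motif was in 9.24% of the promoters of genes called higher, 5.82% of those called lower and 4.86% of all. The CRE motif, which no AP-1 match can be, was in 2.87%, 1.59% and 3.25% in the same order. A match is a description of the letters, and factor binding was not measured.

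Sequencing depth was similar in the 6 libraries, at 11686603 to 15058611 counts with the antibody and 12663407 to 17137988 with both stimuli. Combined libraries 2 and 3 stood apart from the other 10 libraries of the study: counts were found in 15555 and 29990 genes, against 19138 to 24485 elsewhere, and the share of ribosomal protein genes was 3.08% and 3.57%, against 1.52% to 2.43%. The median SD of log2 CPM (counts per gene scaled to a common library total) within the group was 0.173 for the antibody and 0.326 for the combined group, over 9178 genes. Some results, among them the main counts and those of several lists but not of all, are therefore also given without combined libraries 2 and 3.

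With IL-33 added to the antibody, 643 of 14547 tested genes were called at an edgeR adjusted p under 0.05 (4.42%), 393 higher (2.70%) and 250 lower (1.72%). The median log2 fold change of the genes called higher was 1.23 and that of the genes called lower -1.03, against -0.04 over all tested genes. Large changes were mostly increases: 76 genes rose and 16 fell at least 4-fold, and 30 rose at least 8-fold. The 393 genes called higher took 4.84% to 5.10% of all counts in the antibody libraries and 11.1%, 9.86% and 13.98% in combined libraries 1, 2 and 3. The genes called lower took 2.24% to 2.30% with the antibody and 0.879% to 1.30% with both. The groups did not overlap in 3206 of the tested genes (22.0%). All but 3 of the 643 called genes had groups that did not overlap. The exceptions, named after their values were seen, were Nr2c2ap, Dus2 and Mrto4, all called higher. Where groups of a called gene are said below not to overlap, this is thus a description and no added support. For the genes with the largest rise and fall the naming rule required it.

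The number of calls depended on single libraries. It was 124, 138 and 206 without antibody libraries 1, 2 and 3, and 2839, 546 and 209 without combined libraries 1, 2 and 3. Of the 643 genes, 107 (89 higher, 18 lower) stayed called in each of these 6 fits, and 418 in at most 2 of them. Without combined libraries 2 and 3 together, 208 genes were called higher and 12 lower, 155 of the 393 and 9 of the 250 among them, and all 643 had the same sign. In 640 of the 643 genes the groups did not overlap. The sign in combined library 1, the only one left of its group, was thus nearly fixed in advance and is no support. With only the 6 libraries in the fit 242 genes were called, 195 higher and 47 lower. Genes are called stable below when they stayed called in each of the 6 fits that left out 1 library. Most calls that were not stable were lost when an antibody library or combined library 3 was left out.

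**Figure D1:**
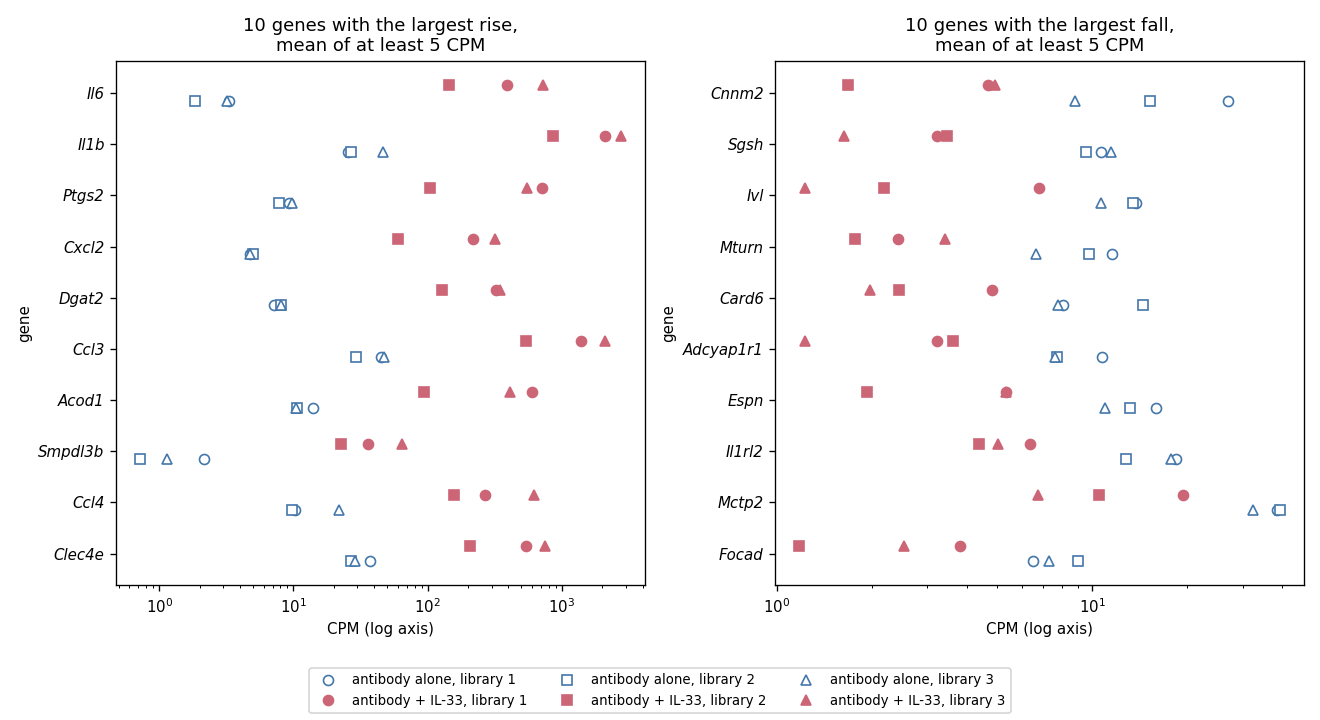
CPM on a log axis in each of the 6 libraries (open blue, antibody alone; filled red, antibody plus IL-33; circles, squares and triangles, libraries 1, 2 and 3) for the 10 genes with the largest rise and the 10 with the largest fall among named genes whose mean reached 5 CPM. The rule that chose the genes admits no overlap between the groups. Combined library 2 is the lowest of the combined libraries in 10 of the 10 genes on the left.

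Cytokine genes held the largest rises. Of 25 interleukin and interferon cytokine genes listed 16 passed the filter on low counts, which can admit a gene through the combined group alone. Of these 6 rose, 0 fell and 10 were not called, with a median log2 fold change of 0.93 against -0.04 for all genes. 5 were called without combined libraries 2 and 3. Il6 (ENSMUSG00000025746, plus strand of chromosome 5, from 30013114 to 30019981), the gene of the acute-phase cytokine interleukin-6, stood at 3.29, 1.85 and 3.20 CPM in antibody libraries 1, 2 and 3 and at 387, 145 and 723 CPM in combined libraries 1, 2 and 3. The combined libraries were all above the antibody libraries, library 3 highest and library 2 lowest. The means were 2.78 ± 0.809 and 418 ± 291 CPM (SD, n = 3), and the log2 fold change was 7.22 (SE 0.67, edgeR adjusted p = 0.000137). Il1b (ENSMUSG00000027398, minus strand of chromosome 2, from 129364570 to 129371139), which encodes the pyrogenic cytokine interleukin-1 beta, went from 25.7, 27.1 and 46.5 CPM to 2081, 856 and 2740.2 CPM, a log2 fold change of 5.84 (SE 0.57, edgeR adjusted p = 0.000159). Il1a, its neighbour on chromosome 2, encodes interleukin-1 alpha and went from 11.4, 8.99 and 22.4 to 211, 85.5 and 228 CPM, 3.61 (SE 0.56, edgeR adjusted p = 0.00354). In each of these genes combined library 2 was the lowest of its group and still above every antibody library. Il13, a type 2 cytokine gene that drives mucus production and airway reactivity, stood at 36.2, 26.4 and 41.5 CPM with the antibody and 439, 204 and 568 CPM with both, a log2 fold change of 3.54 (SE 0.46, edgeR adjusted p = 0.00132).

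The other genes called in the cytokine list were Il1rn and Ebi3. Il1rn, which encodes the natural antagonist of the interleukin-1 receptor, was abundant already, at 1528, 1648 and 2370.1 CPM, and reached 3544, 3924 and 4135 CPM, a log2 fold change of 1.06 (SE 0.23, edgeR adjusted p = 0.0239). Ebi3, a subunit of interleukin-27 and interleukin-35, went from 99.3, 81.7 and 97.9 to 184, 217 and 279.8 CPM, 1.29 (SE 0.18, edgeR adjusted p = 0.0016). The groups of both genes did not overlap. Il1rn lost its call without antibody library 1 or 2 or combined library 3 (adjusted p up to 0.122), and the other called cytokine genes were stable. Il4, the type 2 cytokine gene whose reporter was used for sorting, stood at 211, 177 and 192 CPM with the antibody and 269.9, 132 and 168 CPM with both stimuli. Its groups overlapped, and its log2 fold change was -0.02 (SE 0.24, edgeR adjusted p = 0.966). Il10, an anti-inflammatory cytokine gene, had 1.38 (SE 1.11, edgeR adjusted p = 0.478), and Il5, the eosinophil growth factor gene, 0.88 (SE 0.28, edgeR adjusted p = 0.0876). Csf2, the gene of GM-CSF, had 5 counts in combined library 3 and 0 in the other 5 libraries, and was not tested.

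Chemokine genes had the highest median of the lists examined. Of 23 CC and CXC chemokine genes listed 12 passed the filter on low counts and were tested. Of these 6 rose and 0 fell, all 12 had a positive log2 fold change and the median was 2.03. The filter can admit a gene through the combined group alone. The shared sign and the high median are therefore a description and no support. Of these genes 4 were called without combined libraries 2 and 3. Ccl3 (ENSMUSG00000000982, chromosome 11, from 83647844 to 83649355), which encodes a chemoattractant of monocytes and T cells, stood at 44.6, 29.5 and 47.6 CPM in the antibody libraries and at 1384, 545 and 2099 CPM in the combined libraries, a log2 fold change of 5.05 (SE 0.62, edgeR adjusted p = 0.000715). Ccl4, its neighbour and close relative, went from 10.2, 9.80 and 22.0 to 269, 158 and 622 CPM, 4.64 (SE 0.71, edgeR adjusted p = 0.00326). Both genes were lowest in combined library 2 and highest in combined library 3, with no overlap with the antibody libraries. Cxcl2, a neutrophil chemoattractant gene and one of the promoters shown above, went from 4.72, 4.98 and 4.74 to 219, 60.7 and 319 CPM, 5.37 (SE 0.73, edgeR adjusted p = 0.00159), and Cxcl3, of the same family, from 5.65, 3.69 and 2.80 to 61.1, 23.6 and 100.1 CPM, 3.93 (SE 0.70, edgeR adjusted p = 0.00818). The antibody values of Cxcl2 spanned less than 1 CPM, while its combined values differed several-fold between libraries.

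Other chemokine genes moved less or varied more. Cxcl10, an interferon-induced T cell chemoattractant gene, stood at 1.65, 1.04 and 0.867 CPM with the antibody and 7.74, 3.79 and 8.79 CPM with both, 2.51 (SE 0.65, edgeR adjusted p = 0.0467). Ccl22, a ligand of the type 2 T cell receptor CCR4, went from 2.22, 1.69 and 1.47 to 5.33, 5.05 and 6.06 CPM, 1.61 (SE 0.40, edgeR adjusted p = 0.0384). Both lost their calls without any 1 of the antibody libraries or combined library 3 (adjusted p up to 0.176 and 0.147), and Cxcl3 without antibody library 2 (0.0564). Ccl17, the other CCR4 ligand, was at 0.429, 0.964 and 0.534 CPM with the antibody and 1.83, 2.19 and 6.47 CPM with both, 2.44 (SE 0.66, edgeR adjusted p = 0.0528), and so was not called. Its groups did not overlap, and combined library 3 was well above the other 5 libraries. Ccl24, an eosinophil chemoattractant gene of the eotaxin family, had 1.46 (SE 0.83), and Ccl6, 0.02 (SE 0.23), neither called.

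Of 8 tested TNF superfamily ligand genes, from 14 listed, 2 rose and 0 fell (median 0.53), and both calls were stable. Tnf, the gene of tumour necrosis factor, was even within the antibody group, at 48.3, 50.4 and 50.2 CPM, and reached 220.0, 177 and 350.0 CPM, a log2 fold change of 2.33 (SE 0.27, edgeR adjusted p = 0.000569). Ltb, its neighbour on chromosome 17 and the gene of lymphotoxin beta, went from 245, 198 and 267 to 515, 788 and 786 CPM, 1.56 (SE 0.21, edgeR adjusted p = 0.0016). Combined library 1 was the lowest of its group for Ltb, unlike for Tnf. Of 10 tested growth factor genes, from 14 listed, 0 were called, against 4.42% of all tested genes, with a median of 0.37. Inhba, an activin subunit, had 1.72 (SE 1.00) and Vegfa, the angiogenic factor, 1.11 (SE 0.43).

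Of 13 genes of prostaglandin and leukotriene synthesis 4 rose and 0 fell, and the list median was 0.19. Ptgs2 (ENSMUSG00000032487, plus strand, chromosome 1, from 150100031 to 150108227), the inducible cyclooxygenase, stood at 9.30, 7.79 and 9.74 CPM with the antibody and 711, 104 and 553 CPM with both, a log2 fold change of 5.67 (SE 0.75, edgeR adjusted p = 0.00133). Combined library 2 was far below the other combined libraries and still above all antibody libraries. The cytosolic phospholipase gene Pla2g4a, which releases arachidonic acid, went from 118, 124 and 128 to 228, 182 and 226 CPM, 0.78 (SE 0.17, edgeR adjusted p = 0.0242). Ptges3, a cytosolic prostaglandin E synthase that is also an Hsp90 co-chaperone, went from 128, 129 and 111 to 210.2, 221 and 239 CPM, 0.87 (SE 0.14, edgeR adjusted p = 0.00567). Ptges, the inducible prostaglandin E synthase, stayed under 4 CPM, at 0.286, 0.402 and 0.0667 CPM and 1.90, 0.505 and 3.75 CPM, 3.02 (SE 0.79, edgeR adjusted p = 0.0472). Ptgs2 and Ptges3 were stable, and Pla2g4a and Ptges lost their calls without any 1 antibody library or combined library 3 (adjusted p up to 0.11 and 0.187).

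**Figure D2:**
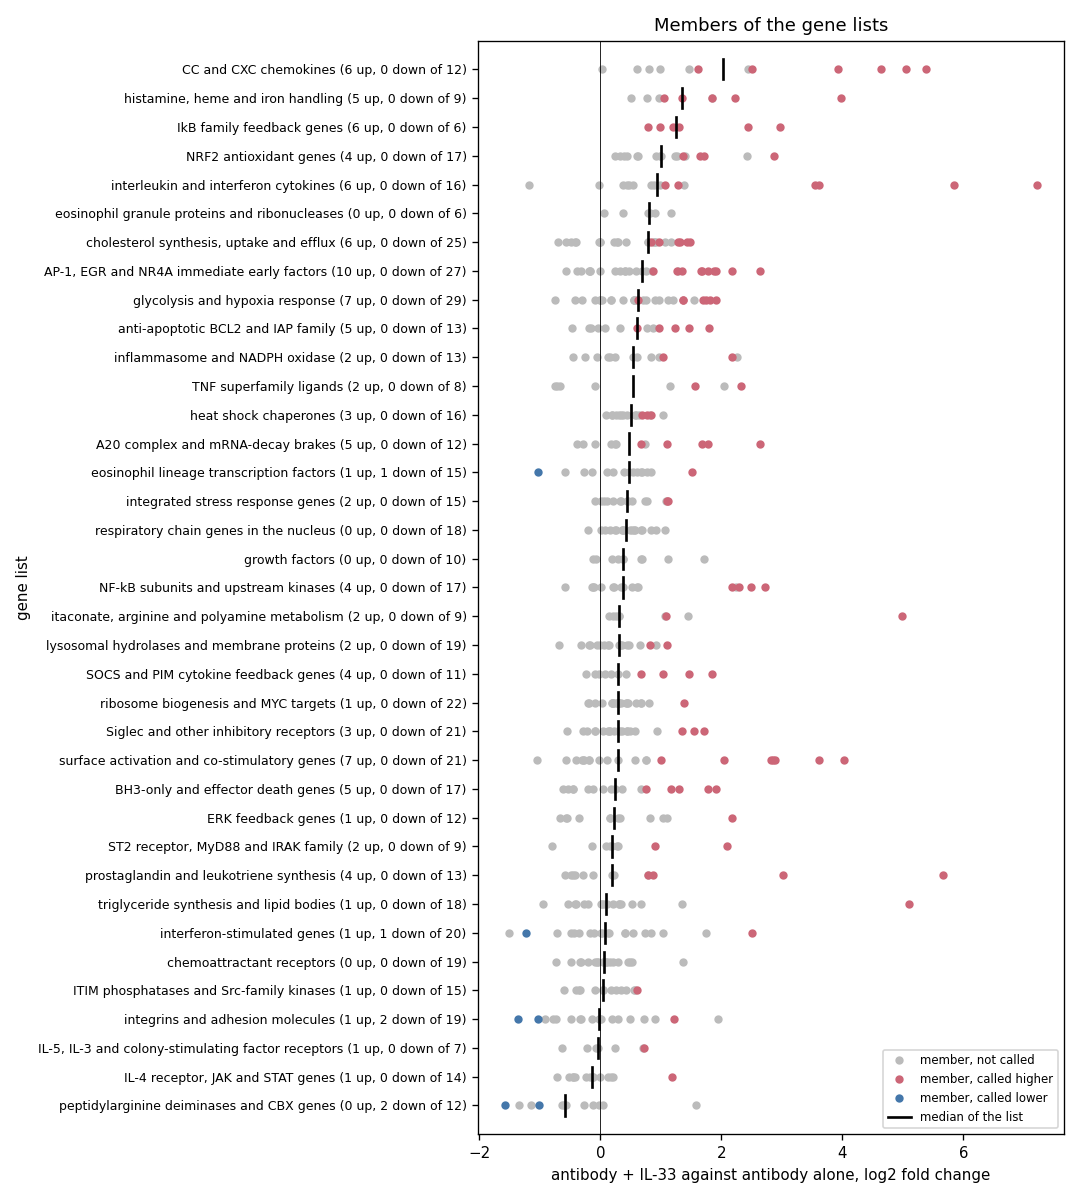
Log2 fold change of antibody plus IL-33 against antibody alone for the tested members of 37 gene lists, ordered by the list median (black bar). Red points are members called higher, blue points called lower and grey points not called. Chemokine genes lie at the top with a median of 2.03, and peptidylarginine deiminase and CBX genes at the bottom with -0.58.

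All 6 tested genes of the IkB family rose, with a median of 1.25, and 5 of them were called without combined libraries 2 and 3. Nfkbia, which encodes the main IkB and whose promoter is shown above, stood at 90.6, 90.5 and 93.9 CPM in the antibody libraries and at 762, 514 and 886 CPM in the combined libraries, a log2 fold change of 2.97 (SE 0.26, edgeR adjusted p = 9.33e-05). Nfkbiz, a nuclear member of the family that assists secondary NF-kB targets such as Il6, went from 46.1, 54.4 and 48.7 to 407, 133 and 272 CPM, 2.44 (SE 0.36, edgeR adjusted p = 0.00278). Nfkbie went from 55.2, 55.4 and 48.6 to 125, 124 and 117 CPM, 1.20 (SE 0.16, edgeR adjusted p = 0.0015), with less spread within the combined group than the genes above. The remaining IkB genes, Nfkbib, Bcl3 and Nfkbid, had log2 fold changes of 1.30, 0.98 and 0.79. Their calls were lost without antibody library 1 or 2 (adjusted p up to 0.0618, 0.0603 and 0.115), and that of Nfkbid also without antibody library 3 or combined library 3.

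Of 17 genes of NF-kB subunits and the kinases and adaptors above them, 4 rose and 0 fell (median 0.37), and 7 were called without combined libraries 2 and 3. The subunits of the alternative pathway rose: Relb went from 48.3, 48.1 and 60.3 to 201, 239 and 268 CPM, 2.18 (SE 0.17, edgeR adjusted p = 8.25e-05), and Nfkb2 from 91.0, 98.8 and 105 to 568, 331 and 547 CPM, 2.30 (SE 0.22, edgeR adjusted p = 0.000137). All combined libraries of both genes were above all antibody libraries. Values for the canonical subunits were smaller and not called, 0.34 for Rela (edgeR adjusted p = 0.165), 0.60 for Nfkb1 (0.0981) and 0.63 for Rel (0.197). Traf1, an adaptor of TNF receptors, went from 14.02, 14.8 and 12.5 to 102, 33.2 and 97.5 CPM, 2.49 (SE 0.42, edgeR adjusted p = 0.0059). Ikbke, an IKK-related kinase gene, went from 5.08, 10.3 and 4.27 to 58.9, 13.0 and 56.6 CPM, 2.72 (SE 0.55, edgeR adjusted p = 0.0168). Combined library 2 of Ikbke was barely above antibody library 2, and its call was lost without antibody library 1 or 3 or combined library 3 (adjusted p up to 0.092).

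Genes that end NF-kB signalling or destroy cytokine messages rose in 5 of 12 cases and fell in 0 (median 0.47), and 4 were called without combined libraries 2 and 3. Tnfaip3, the gene of the deubiquitinase A20, stood at 338, 338 and 317 CPM and 943, 578 and 613 CPM, 1.10 (SE 0.20, edgeR adjusted p = 0.0106), and Tnip1, which encodes an A20-binding protein, at 115, 82.0 and 98.8 and 382, 221 and 342 CPM, 1.67 (SE 0.24, edgeR adjusted p = 0.00227). Zc3h12a, the gene of the ribonuclease Regnase-1 that cleaves Il6 mRNA, went from 90.3, 93.4 and 126 to 379, 347 and 336 CPM, 1.78 (SE 0.18, edgeR adjusted p = 0.000198). The 3 combined values of Zc3h12a lay close together. Its relative Zc3h12c went from 4.22, 4.82 and 3.80 to 40.3, 14.7 and 24.9 CPM, 2.64 (SE 0.41, edgeR adjusted p = 0.0035). Zfp36, the gene of tristetraprolin, which marks AU-rich mRNAs for decay, had 0.68 (SE 0.17, edgeR adjusted p = 0.0414). Tnfaip3 and Zfp36 lost their calls without any 1 antibody library (adjusted p up to 0.0562 and 0.165), and Zfp36 also without combined library 2 or 3.

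Of 9 genes of the ST2 receptor and its MyD88 and IRAK relays 2 rose and 0 fell, with a median of 0.20. Irak3, the gene of a kinase-dead IRAK that blocks signalling from this receptor family, stood at 77.7, 78.2 and 90.4 CPM and 414, 277 and 361 CPM, 2.09 (SE 0.18, edgeR adjusted p = 9.33e-05), without overlap and with combined library 2 lowest. Irak2, a kinase relay, went from 86.0, 76.8 and 124 to 202, 166 and 168 CPM, 0.90 (SE 0.24, edgeR adjusted p = 0.0474), and lost the call without antibody library 1 or 2 or combined library 2 or 3 (adjusted p up to 0.207). Il1rl1, the ST2 gene itself, was at 609, 603 and 744 CPM with the antibody and 857, 769.8 and 567 CPM with both, 0.17 (SE 0.20, edgeR adjusted p = 0.647). The groups of Il1rl1 overlapped, since combined library 3 was the lowest of all 6. Il1rap was near 5 to 9 CPM in both groups, with 0.20 (SE 0.34, edgeR adjusted p = 0.758).

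Siglecf, the gene of the receptor the antibody binds, stood at 829.6, 828 and 1068 CPM with the antibody and 606, 673 and 572 CPM with both. Every combined library was below every antibody library, but the log2 fold change of -0.56 (SE 0.19, edgeR adjusted p = 0.103) was not called. Of 21 Siglec and other inhibitory receptor genes 3 rose and 0 fell (median 0.29), and 2 were called without combined libraries 2 and 3. Siglece, which encodes another sialic acid-binding inhibitory receptor of myeloid cells, went from 264, 278 and 385 to 859, 1142 and 1021 CPM, 1.70 (SE 0.21, edgeR adjusted p = 0.0007), and was stable. Pilra, a paired inhibitory receptor, went from 202, 268 and 334 to 474, 953 and 934 CPM, 1.55 (SE 0.30, edgeR adjusted p = 0.0124), and Clec4a2, a C-type lectin with an inhibitory motif, from 134, 115 and 141 to 217, 328 and 450.3 CPM, 1.35 (SE 0.28, edgeR adjusted p = 0.019). In both of these combined library 1 was lowest. Their calls were lost without antibody library 1 or 2 (adjusted p up to 0.0721 and 0.101), for Clec4a2 also without antibody library 3 or combined library 3. Of 15 phosphatases and Src-family kinases that act at such receptors, only Fgr, a Src-family kinase, was called, at 0.61, and it lost its call without antibody library 1 or 2 or combined library 2 or 3 (adjusted p up to 0.138).

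Surface activation genes included several pattern-recognition receptors. Of 21 tested 7 rose and 0 fell, although the list median was 0.29, and 6 were called without combined libraries 2 and 3. Clec4e, the gene of the lectin Mincle, which senses mycobacterial glycolipids, stood at 36.9, 26.7 and 28.8 CPM and 541, 208 and 749 CPM, 4.02 (SE 0.55, edgeR adjusted p = 0.0016). Clec4d, its partner on chromosome 6, went from 18.6, 12.2 and 15.3 to 91.9, 55.9 and 186 CPM, 2.86 (SE 0.57, edgeR adjusted p = 0.0158). Cd69, an early activation marker of leukocytes, went from 17.0, 22.6 and 15.7 to 125, 83.0 and 184 CPM, 2.82 (SE 0.34, edgeR adjusted p = 0.0007). All combined values of these 3 genes exceeded all antibody values. Tlr2, a receptor for bacterial lipoproteins, went from 1.72, 2.89 and 2.14 to 18.3, 6.65 and 24.7 CPM, 2.88 (SE 0.50, edgeR adjusted p = 0.00735), and Cd14, its lipid-binding co-receptor, from 3.00, 4.18 and 3.67 to 52.9, 11.1 and 68.3 CPM, 3.61 (SE 0.62, edgeR adjusted p = 0.00651). Pdcd1lg2, which encodes the PD-1 ligand PD-L2, went from 3.22, 4.34 and 4.67 to 17.3, 10.2 and 22.9 CPM, 2.04 (SE 0.41, edgeR adjusted p = 0.0163). Clec4e and Cd69 were stable. Tlr2 and Cd14 lost their calls without antibody library 1 (adjusted p = 0.056 and 0.0532), and Clec4d and Pdcd1lg2 without any 1 antibody library or combined library 3 (up to 0.0877 and 0.0885).

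Of 27 immediate early genes of the AP-1, EGR and NR4A families and their partners 10 rose and 0 fell, with a median of 0.68, and 8 were called without combined libraries 2 and 3. Batf, an AP-1 family factor of type 2 lymphocytes, went from 27.9, 24.3 and 37.1 to 77.5, 91.4 and 158 CPM, 1.87 (SE 0.29, edgeR adjusted p = 0.004), and was stable. Batf3, its relative, went from 19.5, 20.2 and 36.6 to 59.3, 83.5 and 118 CPM, 1.77 (SE 0.30, edgeR adjusted p = 0.00647). Nr4a1, an orphan nuclear receptor gene induced by many stimuli, stood at 34.0, 47.6 and 50.2 and 201, 86.1 and 209 CPM, 1.91 (SE 0.42, edgeR adjusted p = 0.0234), with combined library 2 far below the other combined libraries. Ier3, an early response gene that also limits ERK dephosphorylation, went from 15.2, 13.5 and 16.7 to 67.8, 40.8 and 96.6 CPM, 2.18 (SE 0.40, edgeR adjusted p = 0.0107). Egr2, a zinc finger factor, had 1.68 and Fosl1, an AP-1 subunit, 2.64. Batf3 lost its call without antibody library 1 (adjusted p = 0.052) and Ier3 without antibody library 1 or 2 (up to 0.0662). Nr4a1, Egr2 and Fosl1 lost theirs without any 1 antibody library or combined library 3 (up to 0.114, 0.16 and 0.186).

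Cytokine feedback genes of the SOCS and PIM families rose in 4 of 11 cases and fell in 0 (median 0.30). The PIM kinases, which promote survival downstream of cytokine receptors, were all among them. Pim2 went from 348, 268 and 319 to 1062, 978 and 1331 CPM, 1.85 (SE 0.22, edgeR adjusted p = 0.0007), and Pim3 from 42.1, 41.8 and 44.9 to 108, 91.9 and 154 CPM, 1.46 (SE 0.25, edgeR adjusted p = 0.00661), both stable. Pim1 had 0.68. Socs1, an inhibitor of JAK kinases, stood at 307, 304 and 274 CPM and 374, 739 and 705 CPM, 1.04 (SE 0.24, edgeR adjusted p = 0.0314), with combined library 1 nearest to the antibody libraries. It lost its call in 5 of the 6 fits that left out 1 library, all but that without combined library 1, and Pim1 without any 1 antibody library or combined library 3 (adjusted p up to 0.115 and 0.13). Il2rg, the common gamma chain of several cytokine receptors, was the only one of 14 interleukin-4 receptor, JAK and STAT genes called, at 65.9, 60.6 and 83.1 CPM against 141, 176 and 158 CPM, 1.18 (SE 0.18, edgeR adjusted p = 0.00376).

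Calls on the survival and on the death side were all increases. Of 13 anti-apoptotic BCL2 and IAP genes 5 rose and 0 fell (median 0.61), and of 17 BH3-only and effector death genes 5 rose and 0 fell (median 0.24). Without combined libraries 2 and 3 the numbers called higher were 3 and 4. Bcl2l1, the gene of Bcl-xL, stood at 145, 138 and 157 CPM and 316, 364 and 349.8 CPM, 1.23 (SE 0.16, edgeR adjusted p = 0.00116), with little spread in either group. Bcl2a1b, whose reads cannot be separated with certainty from the near-identical Bcl2a1a and Bcl2a1d, went from 19.7, 17.7 and 25.6 to 49.7, 65.7 and 103 CPM, 1.79 (SE 0.30, edgeR adjusted p = 0.00626). On the death side Fas, a TNF receptor family death receptor gene, went from 45.7, 40.2 and 45.4 to 136, 98.8 and 213 CPM, 1.77 (SE 0.28, edgeR adjusted p = 0.00445). These 3 genes were stable. Bnip3, a hypoxia-induced mitophagy gene, had 1.91, and Bcl2l11, which encodes the BH3-only protein Bim, 1.16. Both lost their calls without any 1 antibody library or combined library 3 (adjusted p up to 0.165 and 0.171), and Bcl2l11 also without combined library 1.

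Among lipid genes 1 rose strongly and several sterol genes rose moderately. Dgat2 (ENSMUSG00000030747, chromosome 7, from 99153658 to 99182719), which catalyses the last step of triglyceride synthesis, stood at 7.15, 8.03 and 8.14 CPM in the antibody libraries and at 325, 127 and 349 CPM in the combined libraries, a log2 fold change of 5.10 (SE 0.48, edgeR adjusted p = 0.000137). It was the only one of 18 triglyceride and lipid body genes called, and the list median was 0.08. Of 25 cholesterol genes 6 rose and 0 fell (median 0.78). The 6 were Idi1, Pmvk, Cyp51, Fdft1 and Mvd, enzymes of the mevalonate and sterol pathway, and Insig1, a sterol-sensing brake on it, with log2 fold changes from 0.83 in Mvd to 1.49 in Idi1. None of the 6 was stable (adjusted p up to 0.173, for Insig1 without antibody library 2), and 1 cholesterol gene was called without combined libraries 2 and 3. Smpdl3b, a sphingolipid phosphodiesterase family gene, went from 2.15, 0.723 and 1.13 to 35.9, 22.5 and 64.2 CPM, 4.92 (SE 0.51, edgeR adjusted p = 0.000198).

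Acod1, whose enzyme makes itaconate in activated macrophages, stood at 14.1, 10.6 and 10.4 CPM with the antibody and 604, 93.8 and 409 CPM with both, 4.98 (SE 0.71, edgeR adjusted p = 0.00201). Combined library 2 was again the lowest of its group, and no library overlapped. Of 29 glycolysis and hypoxia response genes 7 rose and 0 fell (median 0.62, with 23 positive), and 7 were called without combined libraries 2 and 3. Egln3, an oxygen-sensing hydroxylase gene induced by hypoxia, went from 43.1, 34.3 and 43.0 to 141, 86.6 and 194 CPM, 1.81 (SE 0.26, edgeR adjusted p = 0.00198), and was the stable one among them. Pfkl, phosphofructokinase of liver type, went from 54.7, 39.9 and 45.0 to 146, 78.7 and 242 CPM, 1.74 (SE 0.33, edgeR adjusted p = 0.013), and Tpi1, triosephosphate isomerase, from 153, 106 and 164 to 345, 278 and 742 CPM, 1.69 (SE 0.32, edgeR adjusted p = 0.012). Their calls were lost without antibody library 1 or 2 (adjusted p up to 0.0751 and 0.0737), that of Pfkl also without antibody library 3. Sms, spermine synthase, went from 26.0, 22.5 and 29.8 to 47.8, 51.5 and 66.2 CPM, 1.08 (SE 0.18, edgeR adjusted p = 0.00567), and was stable.

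The ferritin genes were among the most abundant genes that rose. Of 9 tested genes of histamine, heme and iron handling 5 rose and 0 fell (median 1.35), and 2 were called without combined libraries 2 and 3. Fth1, ferritin heavy chain, stood at 5469, 4749 and 4554 CPM and 17792, 15893 and 35256 CPM, 2.22 (SE 0.43, edgeR adjusted p = 0.0135), and Ftl1, the light chain, at 2610.3, 1900.5 and 2095 and 6218, 5398 and 12216 CPM, 1.85 (SE 0.41, edgeR adjusted p = 0.0237). Together they took 0.662% to 0.814% of the counts with the antibody and 2.24%, 2.00% and 4.07% in combined libraries 1, 2 and 3, so every combined library was above every antibody library. Per kilobase of gene length, the mean level of Fth1 ranked 3 among tested genes with the antibody and 2 with both stimuli, and that of Ftl1 11 and 5. Ferritins have many processed pseudogenes, and reads shared with these are uncertain. Tfrc, the transferrin receptor, went from 25.2, 20.2 and 18.9 to 46.8, 37.0 and 49.6 CPM, 1.05 (SE 0.18, edgeR adjusted p = 0.00735). Slc11a1, the phagosomal metal transporter, had 1.35 (SE 0.36, edgeR adjusted p = 0.0498). Tfrc was stable, and Fth1, Ftl1 and Slc11a1 lost their calls without any 1 antibody library or combined library 3 (adjusted p up to 0.0737, 0.116 and 0.189).

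Of 17 antioxidant genes of the NRF2 pathway 4 rose and 0 fell, all 17 had positive values and the median was 0.99. Without combined libraries 2 and 3, 5 were called. Hmox1, heme oxygenase 1, stood at 288, 247 and 131 CPM and 2193, 576 and 2117 CPM, 2.88 (SE 0.67, edgeR adjusted p = 0.0295), and Sqstm1, the autophagy receptor p62, at 855, 557 and 699.7 and 2881, 1251 and 2781 CPM, 1.71 (SE 0.37, edgeR adjusted p = 0.0216). Srxn1, sulfiredoxin, had 1.65 and Prdx1, a peroxiredoxin, 1.36. None of the 4 was stable, and each lost its call without any 1 antibody library or combined library 3 (adjusted p up to 0.16, for Srxn1). Srxn1 lost its call also without combined library 1 (edgeR adjusted p = 0.0505). Heat shock chaperone genes rose in 3 of 16 cases and fell in 0, again with all 16 positive (median 0.50). They were Hsph1, Hsp90ab1 and Hspa8, with 0.83, 0.77 and 0.69, and none was stable (adjusted p up to 0.173). Casp4, the caspase that detects intracellular lipopolysaccharide, went from 4.22, 4.66 and 4.00 to 18.6, 17.5 and 21.9 CPM, 2.17 (SE 0.27, edgeR adjusted p = 0.000762), and was stable.

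The genes that mark eosinophils most closely were not called. Of 6 granule protein and ribonuclease genes 0 were called, with a median of 0.80 and large spread. Over all tested genes 4.42% were called, so 0 calls among so few genes is near that share. It is no result about eosinophil genes. Prg2, major basic protein, stood at 2914, 933 and 716 CPM with the antibody and 1772, 896 and 5372 CPM with both, 0.82 (SE 0.69, edgeR adjusted p = 0.501), and Epx, eosinophil peroxidase, at 665, 254 and 118 and 413, 139 and 532 CPM, 0.06 (SE 0.67, edgeR adjusted p = 0.966). Antibody library 1 and combined library 3 were the highest in both genes, and the groups overlapped. Without combined library 3 the log2 fold change was -0.19 for Prg2 and -0.33 for Epx. Ccr3, the eotaxin receptor, was at 1662, 1613 and 1909.8 and 1447, 1717 and 1328 CPM, -0.21 (SE 0.16, edgeR adjusted p = 0.466). Il5ra, the interleukin-5 receptor alpha chain, was lower in every combined library, at 105, 104 and 71.2 CPM against 155, 142 and 138 CPM, with -0.64 (SE 0.29, edgeR adjusted p = 0.206). Of 15 lineage transcription factor genes 1 rose and 1 fell. Cebpb, a basic leucine zipper factor of myeloid genes, had 1.51 (SE 0.29, edgeR adjusted p = 0.0128), and Ikzf2, the gene of Helios, -1.02 (SE 0.26, edgeR adjusted p = 0.0405). Cebpb and Ikzf2 lost their calls without any 1 antibody library or combined library 3 (adjusted p up to 0.0681 and 0.151), and Ikzf2 also without combined library 2.

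The 10 genes with the largest fall by the naming rule had log2 fold changes from -2.16 to -1.59. Cnnm2, a magnesium transport gene, went from 26.9, 15.3 and 8.81 CPM with the antibody to 4.68, 1.68 and 4.90 CPM with both, -2.16 (SE 0.46, edgeR adjusted p = 0.0201). Sgsh, a lysosomal heparan sulfate sulfatase gene, went from 10.7, 9.56 and 11.5 to 3.21, 3.45 and 1.63 CPM, -1.94 (SE 0.31, edgeR adjusted p = 0.00445), and Mturn, a regulator of neural and megakaryocyte differentiation, from 11.6, 9.80 and 6.61 to 2.41, 1.77 and 3.41 CPM, -1.87 (SE 0.31, edgeR adjusted p = 0.00546). All combined libraries of these genes were below all antibody libraries, which the naming rule required. Il1rl2, the interleukin-36 receptor and a chromosome 1 neighbour of Il1rl1, went from 18.5, 12.8 and 17.7 to 6.36, 4.37 and 5.04 CPM, -1.63 (SE 0.29, edgeR adjusted p = 0.00857). The remaining 6 of the 10, Ivl, Card6, Adcyap1r1, Espn, Mctp2 and Focad, had log2 fold changes from -1.89 in Ivl to -1.59 in Focad. Of the 10, Sgsh and Mturn were stable. Il1rl2 lost its call without antibody library 1 (adjusted p = 0.0532), Cnnm2 without antibody library 1 or 2 (up to 0.104), and the other 6 without any 1 antibody library or combined library 3, in 4 of them also without combined library 2 (up to 0.152, for Adcyap1r1).

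The lists with called decreases were few. Of 12 peptidylarginine deiminase and CBX genes 2 fell and 0 rose, with a median of -0.58. Padi4, which converts arginine to citrulline in histones, stood at 267, 219.7 and 203 CPM and 105, 117 and 117 CPM, -1.02 (SE 0.20, edgeR adjusted p = 0.0161), and Cbx2, a Polycomb subunit, at 42.8, 30.7 and 35.2 and 18.8, 9.84 and 7.77 CPM, -1.58 (SE 0.32, edgeR adjusted p = 0.0175). Of 19 integrin and adhesion genes 1 rose. Icam1, a ligand of leukocyte integrins, went from 43.8, 51.1 and 69.4 to 152, 104 and 127 CPM, 1.22 (SE 0.25, edgeR adjusted p = 0.0165). Itgb7, a gut-homing integrin chain of the same list, went from 454, 364 and 473 to 197, 258 and 179 CPM, -1.02 (SE 0.25, edgeR adjusted p = 0.0397). Oasl2, an interferon-stimulated gene, had -1.23 (SE 0.26, edgeR adjusted p = 0.0208). Without combined libraries 2 and 3 none of these decreases was called. Padi4, Oasl2, Cbx2, Itgb7 and Icam1 all lost their calls without antibody library 1 (edgeR adjusted p up to 0.135 over the 6 fits, for Itgb7), and none was stable.

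The remaining lists held few calls in number. Over all tested genes 2.70% were called higher. The share was 10.5% of lysosomal, 15.4% of inflammasome and NADPH oxidase, 13.3% of integrated stress response and 8.33% of ERK feedback genes. For ribosome biogenesis and MYC targets it was 4.55%, for IL-5, IL-3 and colony-stimulating factor receptors 14.3%, and for interferon-stimulated genes 5%. No excess over all genes was tested. Of 19 lysosomal genes 2 rose, Lamp1, a lysosomal membrane protein gene, with 0.82 and Ctsz, a cathepsin gene, with 1.11. Of 13 inflammasome and NADPH oxidase genes 2 rose, Casp4 and Cyba, an oxidase subunit gene, with 1.03. Of 15 integrated stress response genes 2 rose, Ppp1r15a, a phosphatase subunit gene that reverses the response, with 1.12 and Slc3a2, an amino acid transporter chain, with 1.10. In ribosome biogenesis and MYC target genes 1 of 22 rose, Nop16, a nucleolar protein gene, with 1.38. Ier3 was the one of 12 ERK feedback genes called, and Csf1r the one of 7 receptor genes of IL-5, IL-3 and colony-stimulating factors. Among 20 interferon-stimulated genes Cxcl10 rose and Oasl2 fell. None of 19 chemoattractant receptor genes (median 0.06) and none of 18 nuclear genes of the respiratory chain (median 0.43) was called. Apart from Casp4, each gene in this paragraph lost its call in at least 1 fit that left out 1 library: without antibody library 1 or 2 for Ctsz (adjusted p up to 0.066), also without combined library 3 for Lamp1 (0.0839), and in 4 or 5 of the 6 fits for Cyba, Nop16, Ppp1r15a and Slc3a2 (up to 0.192, 0.152, 0.145 and 0.164).

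Decreases and gene length moved together. The genes called lower had a median length of 5339.5 bases, those called higher 2921 and all tested genes 3713. With genes divided by length into 3 groups of equal size, 2.64% of the longest were called lower, against 0.804% of the shortest, while 1.59% and 3.59% were called higher. The median log2 difference of the longest group from the antibody libraries was -0.01 in combined library 1, -0.29 in library 2 and -0.22 in library 3. With the length trend removed from each library, a step added after the data were seen, 526 genes were called higher and 277 lower. Among them were 374 of the 393 and 229 of the 250. The part of library quality in these calls was not tested.

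**Figure D3:**
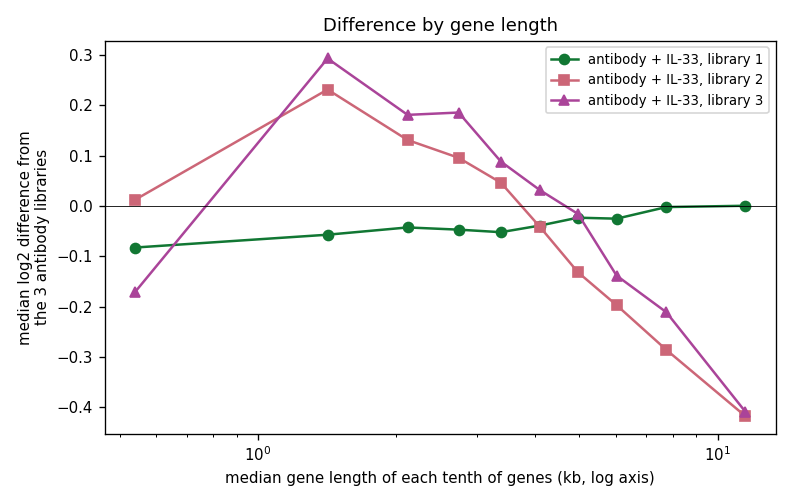
Median log2 difference of each combined library from the 3 antibody libraries (y axis) for 10 groups of tested genes of about equal number, ordered by length (x axis, kilobases, log axis). Library 1 stays between -0.08 and 0.00, while libraries 2 and 3 fall to -0.42 and -0.41 in the group of longest genes.

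Markers of other cells were read for the same libraries. Bulk libraries cannot tell more cells of a type from more RNA per cell. Of 15 monocyte and macrophage markers 4 rose and 0 fell (median 0.55, with 8 positive). Their sum was 2425 to 2813 CPM with the antibody and 6173, 3949.7 and 6528 CPM in combined libraries 1, 2 and 3. Hmox1, Csf1r and Adgre1 made up most of this sum in every library. The called genes were Spic, a red pulp macrophage factor, Hmox1, Csf1r and Adgre1. Spic went from 1.29, 0.642 and 1.13 to 17.2, 5.30 and 26.2 CPM, 3.97 (SE 0.67, edgeR adjusted p = 0.00626), and Csf1r, the receptor of the macrophage growth factor, from 618, 519 and 732 to 1066, 944 and 1052 CPM, 0.71 (SE 0.16, edgeR adjusted p = 0.027). Adgre1, the gene of F4/80, which eosinophils also express, stood at 1549, 1416 and 1470.4 and 2345, 2199.5 and 2671 CPM, 0.70 (SE 0.17, edgeR adjusted p = 0.0334). Spic was stable and the other 3 were not (adjusted p up to 0.119 for Hmox1, 0.135 for Csf1r and 0.135 for Adgre1). The macrophage complement genes C1qa, C1qb and C1qc had -0.24, -0.27 and -0.01, and Cd68 -0.30, none called. No marker of this list was at 0 in all 6 libraries, and its part in the response was not tested.

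Over all tested genes 4.42% were called, so 0 calls in marker lists this short is near that share. Neutrophil markers had 0 of 15 called and summed to 1264 to 2473 CPM with the antibody and 1012 to 2057 CPM with both. None was called of 7 basophil and mast cell markers, 16 of T cells and innate lymphocytes, 14 of B and plasma cells, 6 erythroid, 2 platelet and 3 stromal markers. Of 8 dendritic cell markers Batf3 was called. T cell and innate lymphocyte markers summed to 44.4 to 64.2 CPM and 42.3 to 61.5 CPM, and erythroid markers to 9.34 to 15.8 CPM and 15.9 to 31.8 CPM. Mcpt4, a mast cell protease gene, and Gp1bb, a platelet gene, had no count in any of the 6 libraries. The 13 eosinophil markers, with 0 called, summed to 7486 to 12213 CPM with the antibody and 7686 to 15658 CPM with both.

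IL-33 against the isotype control, a comparison that shares no library with the one above, shows what the cytokine changed without anti-Siglec-F. There 322 of 14547 genes were called (2.21%), 213 higher and 109 lower. Of the 643 genes called with the antibody 206 were also called without it, which is 32.0% of the 643 and 64.0% of the 322. Of these 161 were higher in both, 45 lower in both and 0 opposite. The sign was the same in 617 of the 643. Over all tested genes the log2 fold changes of the 2 comparisons correlated with a Pearson r of 0.41 and a Spearman rho of 0.26. This correlation is across genes, which are not independent replicates.

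Values of the genes with the largest rise are given side by side for both comparisons. Il6 had 7.22 (SE 0.67) with it and 6.49 (SE 0.66) without, Il1b 5.84 and 6.18, Ptgs2 5.67 and 6.59, Dgat2 5.10 and 4.90, and Nfkbia 2.97 and 2.90. Among the 393 genes called higher 305 had a larger log2 fold change with the antibody, and among the 250 called lower 215 had a more negative one. Both sets were chosen on the values with antibody, so these counts are a description. Of the 37 pathway lists 19 had a larger median with the antibody and 18 a smaller one, and no difference between list medians was tested. The examples that follow were picked after their values were seen, from both sides. Surface activation genes had a median of 0.29 with the antibody and 1.08 without it, genes of the A20 complex and mRNA decay 0.47 and 0.68, and ERK feedback genes 0.23 and 0.51. Glycolysis and hypoxia genes had 0.62 and 0.15, and respiratory chain genes 0.43 and -0.08. For chemokines the medians were 2.03 and 2.03.

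**Figure D4:**
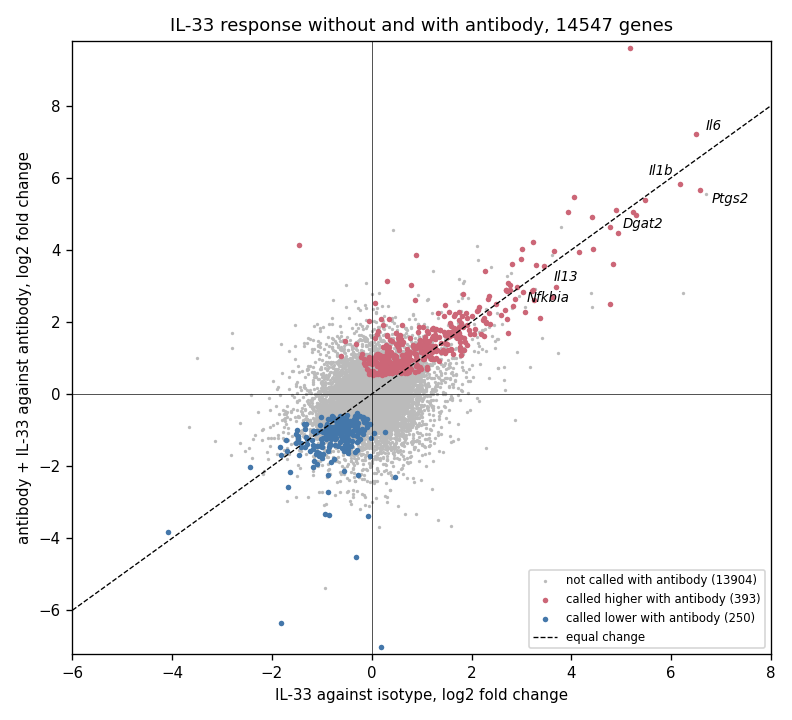
Log2 fold change with IL-33 for each of 14547 tested genes, without anti-Siglec-F (IL-33 against isotype, x axis) and with it (antibody plus IL-33 against antibody, y axis). Red and blue points are called higher and lower with the antibody, grey points are not called, and the dashed line marks equal change. Of the genes labelled in the plot Il6 has the highest value with the antibody, 7.22 against 6.49 without it.

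The difference between both responses was tested as an interaction, the IL-33 effect with the antibody minus that without it. No gene was called by edgeR (0.00%), with a smallest adjusted p of 0.583, while 1150 genes had an unadjusted p under 0.05. DESeq2 called 1 gene, Scand1, limma voom called 0, edgeR without the filter on low counts called 86, and edgeR without combined library 1 called 4, Scand1, Tmem160, Ppp1r14b and Pag1, which were named after their values were seen. The median SE of the difference was 0.40, so its interval was wide for most genes. The difference was 0.73 for Il6 (95% interval -1.04 to 2.50), -0.35 for Il1b (-1.78 to 1.08), 0.08 for Il13 (-1.21 to 1.38) and 0.07 for Nfkbia (-0.65 to 0.79). A miss of the threshold does not show that the responses were alike. Of the 129 named genes 14 had an unadjusted p under 0.05, 11 positive and 3 negative. Among them were 1.20 for Tpi1 (0.25 to 2.15), 1.08 for the glycolytic kinase Pgk1 (0.15 to 2.01), 0.78 for Ltb (0.15 to 1.42), -0.61 for Irak3 (-1.14 to -0.08) and -2.26 for Cxcl10 (-4.31 to -0.20). After adjustment over all genes none passed, and these 5 were picked after their values were seen.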

How the data were processed

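RNA was measured in 12 libraries, 3 in each of 4 groups, of which 6 enter the main comparison. The authors deposited raw read counts per gene as whole numbers with library totals of 11686603 to 17137988, and a gene length per row. The submitters' processing notes name the build mm10 and, with no role or order, STAR 2.6.1d, featureCounts 1.5.0-p3, fastp, DESeq2 and FastQC 0.11.8. Which annotation release was used, and whether counting was stranded, is not given in the sources used here, so reads of overlapping and antisense genes cannot be told apart, and near-identical gene copies are uncertain. A second deposited table, the same counts divided by size factors, was not used.

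Counts were tested in R 4.3.3 with edgeR 4.0.16 (quasi-likelihood test, TMM scaling, low counts removed by filterByExpr on the 4 groups, all 12 libraries in 1 fit with 8 residual degrees of freedom, no block). Of 54532 genes 14547 were tested, and p-values were adjusted by Benjamini-Hochberg over all of them, with a threshold of 0.05. Each SE is the absolute log2 fold change divided by the square root of the edgeR F statistic. It was not estimated separately and restates the p-value. The intervals use this SE with a t distribution. CPM values use the TMM library sizes, and coordinates are those of the deposited table (mm10). limma 3.58.1 (voom) and DESeq2 1.42.0 were alternatives, beside other scalings, filters, a replicate block and fits without single libraries. The edgeR script was tested on simulated data.

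Genes were named by a rule: the 10 most positive and 10 most negative log2 fold changes among called genes whose mean reached 5 CPM and whose groups did not overlap, leaving out pseudogenes and predicted models, up to 6 called members of each list, and 13 genes always (the receptors Siglecf, Ccr3, Il5ra, Il1rl1 and Il1rap, the granule genes Prg2 and Epx, the cytokines Il4, Il6, Il13 and Csf2, and the chemokines Ccl3 and Ccl17). List members without a call may also be named with their values. There were 37 pathway and 10 cell marker lists. Their counts and medians cover tested members only. The filter on low counts can admit a gene through a single group, also one that is high only with IL-33. The comparison, the genes and the lists were chosen with earlier results of these data known. The result of 1 named gene is not reported here.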

Additional observations from a re-analysis of the deposited data

How the results depend on the processing

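The 643 calls became 648 with DESeq2 size factors, 659 with upper quartile scaling and 827 with a stricter filter on low counts (at least 5 CPM in 3 libraries). DESeq2 called 1471 (938 higher, 533 lower), edgeR without a filter 1600 (916 higher, 684 lower, 751 at least 2-fold), and limma voom with quality weights 424 (145 lower). With only the compared groups in the fit 242 were called (195 higher, 47 lower, 215 at least 2-fold), against 385 at least 2-fold in the main analysis. Without combined libraries 2 and 3 the count was 220 (208 higher, 12 lower, 198 at least 2-fold). The causes of these differences were not tested. Leaving out each library in turn gave 124 to 2839 calls, 98 to 1410 higher, 26 to 1429 lower and 116 to 1294 at least 2-fold; with 1 combined library left, it is assumed to vary like the other groups.

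IL-33 against isotype had 322 calls, against 730 with DESeq2, 2089 with limma voom, 683 without a filter, 688 without combined libraries 2 and 3, and 116 to 488 when leaving out each of its libraries. The interaction had 0 calls, against 1 with DESeq2, 86 without a filter and 0 to 4 when leaving out each library of the main comparison. It could not be fitted with only the compared groups.

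With the replicate number as a block 642 genes were called, and with the block and only the compared groups 350 (243 higher, 107 lower). For IL-33 against isotype the block gave 364 calls, and 534 with the gene length trend also removed. With only the compared groups it gave 1235, against 463 in those groups without the block. Whether the numbers pair the libraries could not be decided, since only the antibody and combined groups were correlated. Deviations of same-numbered antibody and combined libraries correlated at 0.14, 0.04 and 0.31. Combined library 1 correlated best with antibody library 2 (0.30), so not every library correlated best with its own number. Counts of Prg2 and Epx were highest in library 1 of the isotype, IL-33 and antibody groups, and in library 3 of the combined group. These genes were picked after their values were seen.

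Of 129 named genes 76 kept direction and side of the threshold without combined libraries 2 and 3, and 52 were no longer called. The sign turned in 4 genes, none of them called. Il4 (-0.02) was 0.0069 with only the compared groups, 0.0035 with DESeq2 size factors, 0.53 without combined libraries 2 and 3 and -0.38 to 0.18 when leaving out each library. Il1rap (0.20) was -0.063 with limma voom and -0.17 to 0.47 on leaving out each library. Epx (0.06) was -0.41 with limma voom, -0.035 with the length trend removed and -0.34 to 0.96 on leaving out each library, and Prg2 (0.82) -0.19 to 1.70. Libraries of 11686603 to 17137988 counts limit what can be seen in genes near 1 CPM.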

Other observations

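Transcription factor genes as a class were called about as often as other genes. Of 813 tested, 21 (2.58%) were higher and 12 (1.48%) lower, with a median log2 fold change of -0.14, against 2.70%, 1.72% and -0.04 over all tested genes. Basic leucine zipper genes held 7 of the increases among 44 tested, Atf3, Batf, Batf3, Fosl1, Jdp2, Junb and Jund. Zinc finger genes of the C2H2 class had 3 increases and 7 decreases among 375. These classes come from the deposited annotation column and were picked after their values were seen.

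Among called genes, 101 adjacent pairs lay within 100 kb of each other, and 81 of these had the same direction. Adjacent here means next to each other among called genes only. Some pairs overlap, such as Irak3 and Tmbim4, and their reads cannot be told apart with certainty. With 393 calls higher and 250 lower many pairs agree in any case, and an excess was not tested. Ccl3 and Ccl4, Il1a and Il1b, Ltb and Tnf, and Batf3 and Atf3 were such pairs, picked after their values were seen.

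Ccdc184 (chromosome 15, from 98167158 to 98170134, mm10) was the one gene called higher that had no count in any antibody library. It had 110, 35 and 148 counts in combined libraries 1, 2 and 3. The edgeR adjusted p was 0.0027. Its pooled level of 7.26 CPM was 100.4-fold the 0.0723 CPM that 3 counts over the whole antibody group would give. The 3 counts are a set allowance for a count of 0, so the ratio is approximate and no guaranteed minimum. It leaves out the spread between the combined libraries.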
